A study of Rattus norvegicus with 40 samples.

Results

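Lung and intestine of the rat fetus at day 20 of gestation (E20) were compared on 10 lung and 10 intestine expression arrays, 20 of the 40 arrays of the series. The animals were Wistar rats with no genetic or drug treatment named in the labels, and the remaining 20 arrays hold the same tissues at day 16 (E16), again 10 of each. The arrays of a group were taken by their labels alone, and every probe set with 1 gene symbol entered the comparison, 20826 of 31099, which stand for 14217 genes. Each array measured whole tissue, so epithelium, mesenchyme, vessels, blood and, in the intestine, the muscle wall were measured as a mixture. The labels say that organs of littermates were frozen and the design text gives 10 embryos per age, while litter, dissection batch and the origin of each array's RNA are not given. The p-values therefore measure only the spread between arrays, which may be partly technical. This spread, and with it each SE, was pooled over both tissues and both ages, so an SE can exceed what the E20 values alone would give. Labelling started from 2 µg of RNA for lung and 1 µg for intestine, so tissue and labelled amount cannot be told apart. The female transcript Xist and the Y-linked Eif2s3y were each high on 5 lung and 5 intestine arrays, so the sexes were evenly spread over the tissues.

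Lung and gut epithelium both arise from the endoderm of the embryonic foregut and midgut or hindgut, and they take on opposite tasks before birth. The lung epithelium forms airways and alveolar sacs in which type II cells make surfactant, the lipid and protein film that keeps air spaces open, and flat type I cells form the gas exchange surface. The intestinal epithelium forms villi whose enterocytes carry a brush border of enzymes and transporters and package dietary fat into lipoproteins. At E20 the rat is close to birth, so these data show both organs shortly before air breathing and milk feeding begin.

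In the lung the surfactant genes, the airway secretory product Scgb1a1 and the T-box factors Tbx4 and Tbx5 stood highest over intestine. In the intestine the fat packaging gene Mttp, the vitamin A carrier Rbp2, apolipoproteins and the urea cycle enzyme Cps1 stood highest over lung. Values are log2 of the deposited intensity, and a difference is lung minus intestine, so that 1 unit is a 2-fold step and negative values are higher in intestine. Calls required a difference of at least 1 in size and, in limma, a p under 0.05 after Benjamini-Hochberg adjustment. By that rule 1125 of 14217 genes were higher in lung (7.91%) and 1167 were higher in intestine (8.21%). Counted as probe sets, 1569 of 20826 (7.53%) were higher in lung and 1457 (7%) were higher in intestine. The median difference over all genes was -0.09. Large differences lay more often on the intestinal side by count: 437 genes were at least 4-fold higher in intestine and 356 in lung, and 140 against 49 were at least 16-fold higher. The first principal component of the 20 arrays, over 9772 genes brighter than the median of all values, separated the tissues and held 87.0% of the variance.

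**Figure D1:**
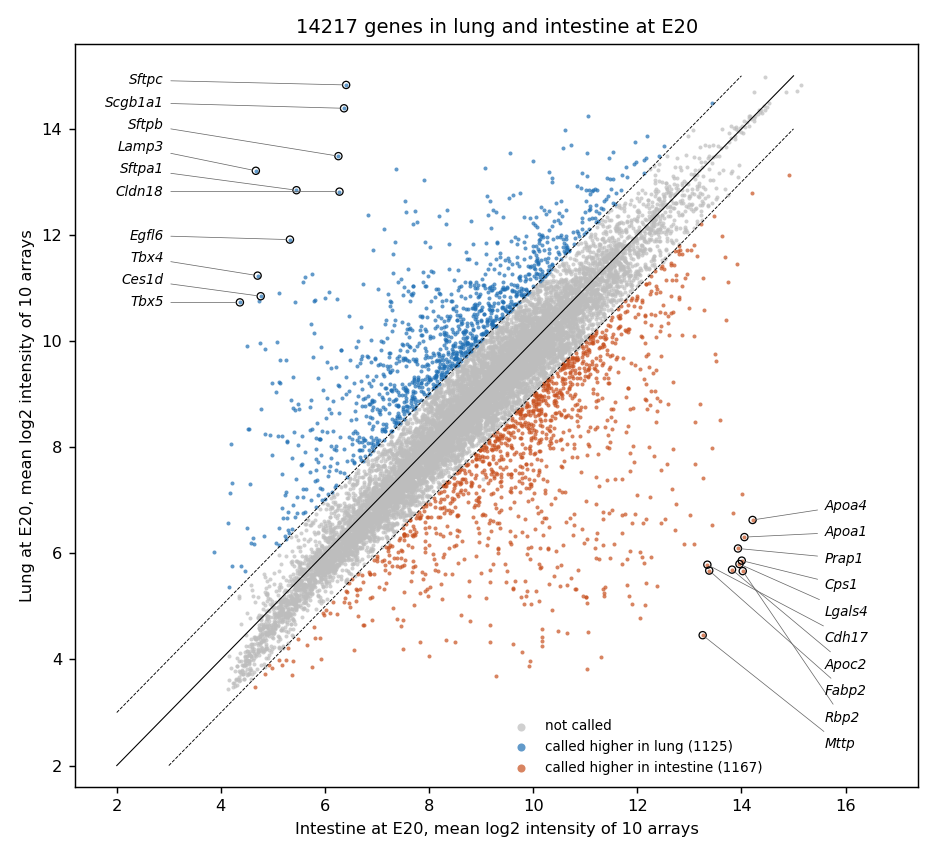
Mean log2 intensity of each of 14217 genes over 10 intestine arrays (x axis) and 10 lung arrays (y axis) at E20. Blue points were called higher in lung (1125), orange points higher in intestine (1167), dashed lines mark a 2-fold difference, and the circled genes are the 10 with the largest difference on each side, from Lamp3 at 8.54 to Mttp at -8.80.

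Lamp3, a lamellar body protein of type II cells, gave the largest lung difference. Its log2 intensity ran from 13.01 to 13.56 over the lung arrays with a median of 13.20, and from 4.14 to 5.12 over the intestine arrays with a median of 4.73. The difference was 8.54 (SE 0.20, adjusted p = 6.42e-33 by limma), which is 372-fold. Sftpc, the surfactant protein made by type II cells alone, was at 14.78 to 14.87 in lung (median 14.84) and at 6.14 to 6.76 in intestine (median 6.37), a difference of 8.42 (SE 0.11). Its lung values had an SD of 0.035 and lay near the top of the scale, and whether that limit narrowed their spread was not tested. Scgb1a1, the club cell secretory protein, was at 14.06 to 14.53 in lung (median 14.45) and at 6.21 to 6.82 in intestine (median 6.30), a difference of 8.02 (SE 0.11). No intestine array reached the lung range of these genes. Sftpa1 (7.39), Sftpb (7.23), the secreted matrix protein gene Egfl6 (6.59), the tight junction gene Cldn18 (6.54), Tbx4 (6.53), Tbx5 (6.36) and the carboxylesterase gene Ces1d (6.08) completed the 10 largest lung differences among established gene symbols whose groups did not overlap.

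Mttp, which loads lipid onto apolipoprotein B, gave the largest difference of the comparison. It was at 12.92 to 13.46 in intestine (median 13.30) and at 4.0 to 5.00 in lung (median 4.39), a difference of -8.80 (SE 0.15, adjusted p = 3.35e-37 by limma), or 445-fold. Rbp2, the retinol binding protein of enterocytes, was at 13.55 to 14.30 in intestine (median 14.09) and at 5.27 to 6.42 in lung (median 5.62), a difference of -8.36 (SE 0.12). Lgals4, a gut galectin, was at 13.83 to 14.10 in intestine (median 13.94) and at 5.31 to 6.23 in lung (median 5.88), a difference of -8.16 (SE 0.21). Here too no lung array reached the range of the intestine. Cps1 (-8.14), Apoc2 (-8.13), the secreted proline-rich protein gene Prap1 (-7.84), Apoa1 (-7.75), the fatty acid carrier Fabp2 (-7.71), Apoa4 (-7.59) and the gut cadherin gene Cdh17 (-7.56) followed. For Cps1, Apoc2 and Apoa1 the lung values were spread (SD 0.99, 0.71 and 1.00), and lung arrays 1 and 8 held the highest of them. Without these 2 arrays, lung array 6 and intestine array 9, the differences were -8.64 for Cps1, -8.42 for Apoc2 and -8.20 for Apoa1.

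**Figure D2:**
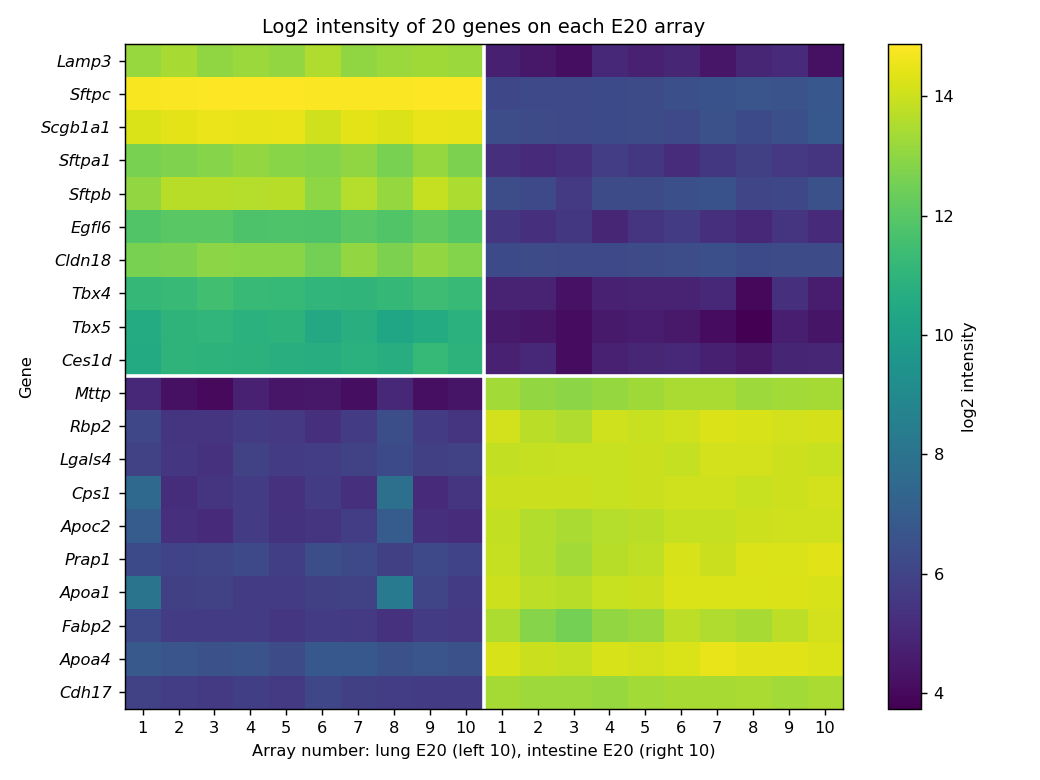
Log2 intensity (colour scale) of the 10 genes with the largest lung difference (upper rows) and the 10 with the largest intestine difference (lower rows) on each of the 10 lung and 10 intestine arrays at E20. Each gene is bright in 1 tissue on all 10 arrays, and within lung the arrays 1 and 8 stand out for Cps1, Apoc2 and Apoa1.

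The weaker side of many calls lay near the background of the arrays. In 470 of the 1125 lung calls (41.8%) the intestine mean, and in 571 of the 1167 intestine calls (48.9%) the lung mean, was below the median of all log2 values, 7.89. No detection calls were used, so the size of such a difference depends on where the background lies. Both means were below that median for 81 lung calls and 129 intestine calls. Of the lung calls, 402 came from genes with several probe sets, and another set was called the same way in 197 of these and the opposite way in 3. For the intestine the same counts were 303, 117 and 0.

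The bases before the start of some genes with the largest differences are shown because each tissue has known factors: NKX2-1 in lung epithelium, and HNF4, a nuclear receptor, in enterocytes. Whether these factors act on the genes printed was not tested. RefSeq start sites of assembly GRCr8 were found for 11700 of the 14217 genes. The 250 bases before each start are printed 5′ to 3′ along the gene, with capitals for a match, on either strand, to CTCAAG or CAAGTG, cores bound by NKX2-1 and related NK2 homeobox proteins, in the lung genes, and to CAAAGTNC, a core of the HNF4 site, in the intestine genes. CTCAAG and CAAGTG share bases where they meet as one run, and a match is a description of the letters, not a bound site. The genes printed were chosen after their matches were seen. Sftpb lies at chr4:105917338-105917587 on the plus strand, with matches that begin 110 and 25 bases before the start. Scgb1a1 lies at chr1:215409687-215409936 on the minus strand, with matches 199 and 92 bases before. Lamp3 lies at chr11:94697772-94698021 on the plus strand, with a match 18 bases before. For the intestine, Rbp2 lies at chr8:107963292-107963541 (matches 151 and 118 bases before the start), Fabp2 at chr2:213724379-213724628 (105 bases) and Cps1 at chr9:76063613-76063862 (70 bases), all on the plus strand.
Sftpb: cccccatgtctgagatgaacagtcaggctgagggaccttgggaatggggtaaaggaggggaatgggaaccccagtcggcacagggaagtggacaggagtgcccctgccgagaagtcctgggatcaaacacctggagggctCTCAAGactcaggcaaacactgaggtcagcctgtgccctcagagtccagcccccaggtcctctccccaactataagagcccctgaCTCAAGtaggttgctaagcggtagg
Scgb1a1: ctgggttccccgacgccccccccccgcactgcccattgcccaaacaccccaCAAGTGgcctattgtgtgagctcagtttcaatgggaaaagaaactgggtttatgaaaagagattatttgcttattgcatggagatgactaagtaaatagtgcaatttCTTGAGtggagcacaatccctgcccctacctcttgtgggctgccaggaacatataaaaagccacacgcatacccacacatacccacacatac
Lamp3: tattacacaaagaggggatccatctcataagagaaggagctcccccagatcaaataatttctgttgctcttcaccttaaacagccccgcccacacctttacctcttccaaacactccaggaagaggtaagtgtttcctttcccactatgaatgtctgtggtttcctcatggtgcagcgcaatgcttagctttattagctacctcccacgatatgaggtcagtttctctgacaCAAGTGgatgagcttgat
Rbp2: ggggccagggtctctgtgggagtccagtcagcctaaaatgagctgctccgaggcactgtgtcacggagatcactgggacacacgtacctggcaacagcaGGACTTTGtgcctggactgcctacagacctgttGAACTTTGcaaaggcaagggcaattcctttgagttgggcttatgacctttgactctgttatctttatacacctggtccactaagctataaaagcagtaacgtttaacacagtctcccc
Fabp2: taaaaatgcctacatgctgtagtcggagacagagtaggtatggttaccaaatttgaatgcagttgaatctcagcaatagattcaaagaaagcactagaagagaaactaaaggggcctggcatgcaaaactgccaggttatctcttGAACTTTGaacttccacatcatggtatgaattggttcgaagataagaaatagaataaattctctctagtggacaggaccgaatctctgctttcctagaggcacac
Cps1: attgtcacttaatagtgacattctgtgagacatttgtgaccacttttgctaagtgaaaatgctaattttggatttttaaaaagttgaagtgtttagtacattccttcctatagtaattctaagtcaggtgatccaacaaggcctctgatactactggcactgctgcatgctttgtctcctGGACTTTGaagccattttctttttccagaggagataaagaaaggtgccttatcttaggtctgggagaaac

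Over all 11700 promoters of this length, CAAAGTNC was found in 3.15%, in 5.7% of the 965 genes called higher in intestine and in 2.07% of the 869 called higher in lung. Among genes at least 16-fold higher in intestine it was found in 17 of 118 (14.4%), and among those at least 16-fold higher in lung in 3 of 38 (7.89%). CAAGTG was found in 9.91% of all promoters, 11.7% of the lung calls and 10.3% of the intestine calls, and in 12 of 38 (31.6%) and 16 of 118 (13.6%) of the genes at least 16-fold higher in lung and in intestine. CTCAAG was found in 12% of all promoters, 11.2% of the lung calls and 14.1% of the intestine calls, and in 8 of 38 (21.1%) and 18 of 118 (15.3%) at 16-fold. The motif AGATAA, the core read by factors of the GATA family, was found in 6.62% of all promoters, 6.1% of the lung calls and 7.67% of the intestine calls, and in 2 of 38 (5.26%) and 18 of 118 (15.3%) at 16-fold. The HNF1 core sequence GTTAATNAT was found in 0.47% of all promoters, in 6 of 118 (5.08%) of the genes at least 16-fold higher in intestine and in 0 of 38 on the lung side. The motif CAATAAA, bound by CDX proteins, was found in 2.62% of all promoters and in 2.54% and 5.26% of the 16-fold intestine and lung genes. These shares are descriptions without a test, and the motifs were chosen with the calls known.

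The genes of surfactant and type II cells were higher in lung in 16 of 19 measured members, and none was higher in intestine, against 7.91% and 8.21% over all genes. Their median difference was 3.47. The secreted collectins Sftpa1 and Sftpd bind microbes and surfactant lipid, and the hydrophobic proteins Sftpb and Sftpc spread the film. Sftpb was at 12.97 to 13.90 in lung (median 13.64) and at 5.65 to 6.53 in intestine (median 6.32). Sftpd was at 13.03 to 13.40 (median 13.30) against 7.16 to 7.55 (median 7.34), a difference of 5.89 (SE 0.06). Napsa, the protease that trims pro-surfactant proteins, differed by 4.87, Abca3, the lamellar body lipid pump, by 2.55, and Lpcat1, which makes the saturated surfactant lipid, by 2.30. Slc34a2, the phosphate carrier that marks type II cells, was at 13.40 to 13.86 in lung and at 10.53 to 10.92 in intestine, where it lay well above the median of all values, and differed by 2.96 (SE 0.13). The 3 members that were not called were Fabp5 (0.28), Ctsc (-0.20) and Cebpa (-0.36). Cebpa, a factor of both lung and gut epithelium, was at 10.83 to 11.50 in lung and 11.48 to 11.70 in intestine. In bulk tissue, fewer cells of a type and less RNA per cell cannot be told apart, here and in every comparison that follows.

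Genes of surfactant lipid, fatty acid and sterol synthesis gave 1 lung call and 3 intestine calls among 19. Scd, which makes unsaturated fatty acids, was the lung call, at 7.97 to 10.41 in lung (median 9.57) and 7.11 to 7.64 in intestine (median 7.31), a difference of 2.22 (SE 0.17). Fasn, the fatty acid synthase, missed the call at 0.99, and was called at 1.17 without lung arrays 1, 6 and 8 and intestine array 9. The dimmer of the 2 Fasn probe sets was called higher in lung with all arrays. On the intestinal side, Chpt1, which completes phosphatidylcholine, differed by -3.29, the fatty acid elongase gene Elovl6 by -2.21, and the choline kinase gene Chka by -1.10. Pcyt1a, the rate-limiting step of phosphatidylcholine synthesis, was at -0.82 and was not called.

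Type I cell genes were higher in lung in 12 of 16 measured members and higher in intestine in none, with a median of 2.45. Ager, the receptor that marks the basal face of type I cells, was at 11.88 to 13.28 in lung (median 12.74) and 7.35 to 7.86 in intestine (median 7.49), a difference of 5.10 (SE 0.12). Clic3, a chloride channel family member, differed by 5.56, the receptor gene Gprc5a by 4.71, Emp2 by 4.19, Pdpn by 3.15 and Hopx by 2.52. Uncalled members were Msln (0.86), the water channel gene Aqp5 (0.56), Clic5 (0.42) and, by its brightest probe set, the sodium channel subunit gene Scnn1g (0.11). Aqp5 was at 7.70 to 8.35 in lung, close to the median of all values, and Clic5 was bright in both tissues, at 9.79 to 11.14 in lung and 9.5 to 10.34 in intestine.

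Airway genes followed the same side. Of 12 club and airway secretory genes, 8 were higher in lung and 2 were higher in intestine, and of 9 ciliated cell genes, 7 were higher in lung. Scgb3a1, a secretoglobin, ranged widely in lung, from 9.56 to 13.08 with a median of 12.54 (SD 1.37), against 7.12 to 7.67 in intestine. Cyp2f4, the club cell cytochrome P450, differed by 4.23 and Hp, a haemoglobin binding protein, by 2.75. The antimicrobial lectin gene Reg3g (-1.42) and the glutathione transferase gene Gsto1 (-2.0), both placed in the airway list, were higher in intestine. Among ciliated cell genes the dynein light chain gene Dynlrb2 differed by 3.72, the radial spoke gene Rsph1 by 3.29 and Ccno, which drives centriole amplification, by 2.93. Foxj1, the master factor of motile cilia, was at 9.13 to 9.97 in lung and 8.29 to 8.76 in intestine, a difference of 1.19 (SE 0.08). The Foxj1 call was lost in the test against a 2-fold difference (adjusted p = 0.0887 by limma).

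Transcription factors of lung epithelium and mesenchyme were called higher in lung in 11 of 19 measured members and higher in intestine in none, with a median of 1.56. Tbx4, a mesenchymal factor of the lung and hind limb, was at 11.02 to 11.52 in lung (median 11.23) and 3.98 to 5.24 in intestine (median 4.80). Tbx5 was at 10.31 to 11.06 (median 10.78) against 3.74 to 4.66 (median 4.47). Nkx2-1, the defining factor of lung endoderm, was at 9.78 to 11.14 (median 10.76) against 6.94 to 7.62 (median 7.24), a difference of 3.41 (SE 0.14). The epithelial and mesenchymal homeobox genes Irx1 (4.97), Irx2 (4.40) and Irx3 (2.43), the forkhead genes Foxa2 (3.96) and Foxp2 (1.56), Etv5 (3.47), Tcf21 (1.73) and Hoxa5 (1.11) made up the rest of the calls. The uncalled members included Sox2 (0.38), Gata6 (0.22), Foxa1 (-0.07), Tbx3 (-0.14) and Tbx2 (-0.18), and Gata6 was at 9.34 to 9.85 in lung and 8.87 to 9.95 in intestine. Among 6 measured T-box genes, 2 were higher in lung and none in intestine.

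Genes of lung liquid and ion transport gave 5 lung calls and 1 intestine call among 16. The fetal lung secretes liquid and must absorb it at birth through the epithelial sodium channel. Its alpha subunit gene Scnn1a was at 9.71 to 11.57 in lung (median 11.09) and 5.75 to 6.23 in intestine (median 5.99), a difference of 4.81 (SE 0.19). The beta subunit gene Scnn1b differed by 1.19, and the gamma subunit gene Scnn1g was not called at 0.11 by its brightest probe set. The other of the 2 Scnn1g probe sets was called higher in lung. The chloride channel gene Ano1 (2.78), the channel regulator gene Nedd4l (1.86) and the channel activating protease gene Prss8 (1.2) were also higher in lung, and the protease gene St14 was higher in intestine (-1.39). Atp1b1, a sodium pump subunit, was at 12.67 to 13.14 in lung and 13.19 to 13.36 in intestine, a difference of -0.36 that was not called. The bumetanide-sensitive carrier gene Slc12a2 (0.41) and Cftr (0.83) were not called either.

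The lung mesenchyme, vessels and matrix stood above those of the gut. Endothelial genes were higher in lung in 18 of 21 and higher in intestine in none, with a median of 1.63, and every lung array lay above every intestine array for 20 of 21, against 15.5% of all genes. Cldn5 (2.76), Sox17 (2.49), Emcn (2.23) and Tie1 (1.85) led them, and the panendothelial gene Pecam1 was at 10.35 to 10.97 in lung and 8.51 to 9.28 in intestine. Eng (0.62) and Flt1 (0.61) were not called, nor was Car4 (-0.07). Erythroid genes moved the same way, with 8 of 15 higher in lung, and the mean level of that list ran from 9.51 to 10.40 in lung and from 8.82 to 9.52 in intestine. The part of blood in the vessel and leukocyte differences was not tested.

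Elastic fibre genes were higher in lung in 12 of 18, with none higher in intestine and a median of 1.34. Elastin gives the lung its recoil and is laid on a scaffold of microfibrils. Eln was at 11.85 to 13.11 in lung (median 12.74) and 8.94 to 9.47 in intestine (median 9.14), a difference of 3.47 (SE 0.14). The microfibril gene Mfap4 differed by 3.37, the elastin binding fibulin gene Fbln5 by 3.23, Mfap5 by 2.87, and the crosslinking enzyme genes Loxl1 and Lox by 2.78 and 2.70. Loxl2 was at -0.68 and not called. Of 41 collagen chain genes, 12 were higher in lung and 3 in intestine. Col13a1 (3.06), Col6a6 (2.55) and the basement membrane chains Col4a6 (2.26), Col4a5 (2.05), Col4a1 (1.96) and Col4a2 (1.85) were among the lung calls. Col17a1, the hemidesmosome collagen (-4.52), Col6a5 (-2.42) and Col12a1 (-1.30) were the intestine calls. The fibrillar chains Col1a1 (0.70) and Col3a1 (0.89) were not called.

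Alveolar mesenchyme and lipofibroblast genes were higher in lung in 10 of 16 and higher in intestine in none. Meox2, a mesodermal homeobox factor, was at 11.36 to 11.99 in lung and 6.55 to 8.13 in intestine, a difference of 4.33 (SE 0.15). Lpl (lipoprotein lipase) differed by 3.29, the lung mesenchyme ligand gene Wnt2 by 3.02, the lipase inhibitor gene G0s2 by 3.0 and the receptor gene Pth1r by 2.32. Fgf7 and Fgf10, growth factors of branching, were both at 0.34, and Pdgfra, a fibroblast receptor shared by villus and alveolar mesenchyme, was at -0.34, all uncalled. Plin2, a lipid droplet protein, was at 0.18 by its brightest probe set and at 1.75, and called, by the mean of its 2 probe sets.

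**Figure D3:**
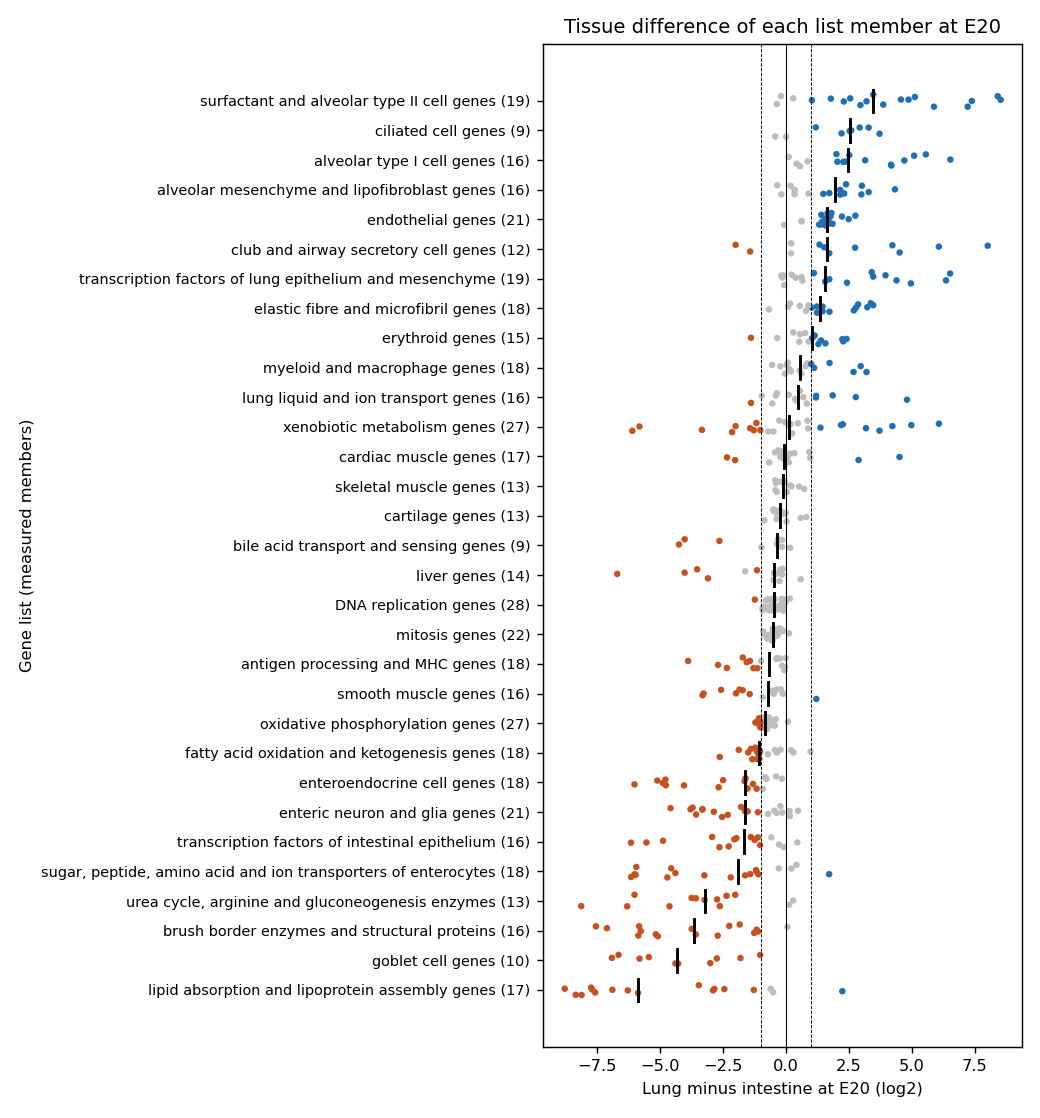
Lung minus intestine at E20 (log2, x axis) for each measured member of 31 gene lists, sorted by the list median (black bar). Blue members were called higher in lung, orange members higher in intestine, grey members were not called, and dashed lines mark 1 and -1. The surfactant list has the highest median, 3.47, and the lipid absorption list the lowest, -5.88.

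On the intestinal side the brush border, the folded apical membrane of enterocytes, was the clearest structure. Of 16 measured brush border genes, 15 were higher in intestine and none in lung, with a median of -3.67, and the disaccharidase gene Treh (0.06) was the uncalled member. Every lung array lay below every intestine array for 14 of 16, against 18.6% of all genes. Vil1, the actin bundler of microvilli, was at 12.99 to 13.54 in intestine (median 13.26) and 7.25 to 7.81 in lung (median 7.35), a difference of -5.84 (SE 0.10). The protease gene Mep1a was at 11.61 to 12.56 (median 12.24) against 4.71 to 5.46 (median 5.08), a difference of -7.12 (SE 0.14). Cdhr5 (-5.87), Mep1b (-5.77), the phosphatase gene Alpi (-5.17), Cdhr2 (-5.10), the aminopeptidase gene Anpep (-3.75) and Dpp4 (-2.71) followed. Treh was at 5.56 to 6.56 in intestine, below the median of all values.

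Lipid absorption was the list with the largest intestine difference: 14 of 17 members were higher in intestine and 1 in lung, with a median of -5.88. Beside Mttp, Rbp2 and the apolipoproteins already named, Fabp1 differed by -6.90, Apob, the structural protein of chylomicrons, by -6.29 and Apoc3 by -5.88. The enzymes that rebuild triglyceride differed less, with Mogat2 at -3.46, Dgat2 at -2.9 and Dgat1 at -2.85. The fatty acid receptor gene Cd36 went the other way, at 9.72 to 11.79 in lung and 7.85 to 9.20 in intestine, a difference of 2.24 (SE 0.23). Cd36 is also carried by endothelium and macrophages. The sterol exporters Abcg5 (-0.61) and Abcg8 (-0.51) were not called.

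Transporters of enterocytes were higher in intestine in 14 of 18 and in lung in 1. Slc2a2, a glucose carrier, was at 10.65 to 12.06 in intestine (median 11.36) and 4.89 to 6.15 in lung (median 5.09), a difference of -6.16 (SE 0.15). The peptide carrier gene Slc15a1 differed by -5.95, the amino acid exchanger gene Slc7a9 by -6.02, the chloride exchanger gene Slc26a3 by -5.98 and the sodium exchanger gene Slc9a3 by -4.72. Slc5a1, the sodium-coupled glucose carrier, was still dim at E20, at 7.47 to 8.21 in intestine and 6.43 to 6.88 in lung (-1.16, SE 0.08), and lost its call in the test against a 2-fold difference (adjusted p = 0.23 by limma). The fructose carrier gene Slc2a5 was at 0.42 and not called. Slc1a1, a glutamate carrier, was the lung call (1.72).

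Of 9 genes of bile acid transport and sensing, 3 were higher in intestine: the exporter gene Abcc2 (-4.25), the basolateral carrier subunit gene Slc51a (-4.03) and the bile acid receptor gene Nr1h4 (-2.65). Slc10a2, the ileal uptake carrier, was at 5.74 to 6.86 in intestine and 5.04 to 5.97 in lung (-0.97, not called), and Fabp6, the ileal bile acid binding protein, was at -0.16. Both genes lay below the median of all values in both tissues.

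Goblet cell genes were higher in intestine in 10 of 10 measured members, with a median of -4.34. The mucin gene Muc2 was at 10.86 to 11.59 in intestine and 6.74 to 7.15 in lung, a difference of -4.29 (SE 0.08). Clca1 (-6.92), Muc13 (-6.66), Zg16 (-5.82), Fcgbp (-5.45) and Tff3 (-4.40), all products of goblet cells or the mucus layer, were larger. Enteroendocrine genes were higher in intestine in 13 of 18 and higher in lung in none. The granin gene Chgb was at 9.55 to 10.18 in intestine and 3.65 to 4.19 in lung, a difference of -6.02 (SE 0.14). The hormone genes Nts (-5.12), Sst (-4.90), Sct (-4.79), Gcg (-4.78), Gip (-2.50) and Pyy (-1.64) were called, while Cck was at -0.78. The progenitor factor Neurog3 was at -0.92 and not called. With only probe sets bright on average over all 40 arrays of both tissues and ages, 2 enteroendocrine genes in place of 13 were called.

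Transcription factors of the intestinal epithelium were higher in intestine in 12 of 16 and higher in lung in none. Hnf4a was at 11.95 to 12.27 in intestine (median 12.08) and 5.51 to 6.39 in lung (median 5.98), a difference of -6.16 (SE 0.14), or 71.7-fold. Cdx2, the hindgut homeobox factor, was at 11.94 to 12.41 (median 12.11) against 6.23 to 6.80 (median 6.62), a difference of -5.55 (SE 0.12). Creb3l3, a membrane-bound factor of lipid metabolism, differed by -4.89 and Gata4 by -2.94, while Cdx1 was at -1.40. Klf4, a factor of goblet cells and many other epithelia, was at 0.45 and not called.

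The muscle wall and enteric nervous system gave a second intestinal group. Smooth muscle genes were higher in intestine in 7 of 16 and in lung in 1, with a median of -0.73. Actg2, the enteric actin, was at 13.34 to 14.16 in intestine (median 13.63) and 10.09 to 10.80 in lung (median 10.35), a difference of -3.31 (SE 0.12). The calponin gene Cnn1 differed by -3.27, Synpo2 by -2.58 and Tpm2 by -1.99, although the mean of the 2 probe sets of Tpm2 gave -0.94 and no call. Acta2, the actin of vascular and airway muscle as well as gut, was at 11.99 to 12.27 in lung and 12.15 to 12.88 in intestine (-0.36, not called), and Des was at -0.49. Csrp1 was the lung call (1.21). Of 21 neuron and glia genes, 13 were higher in intestine and none in lung. The neurofilament gene Nefm was at 8.97 to 10.48 in intestine and 4.89 to 5.67 in lung (-4.59, SE 0.17), and Gap43 (-3.80), Tubb3 (-3.71), Elavl4 (-3.57) and the peptide gene Vip (-3.32) followed. The glial genes Sox10 (-0.71), Gfap (-0.37) and S100b (0.15) and the receptor gene Ret (0.14) were not called. Of the 3 probe sets of Ret, 1 of the dimmer sets was called higher in intestine.

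Urea cycle, arginine and gluconeogenesis enzymes were higher in intestine in 11 of 13 and higher in lung in none, with a median of -3.24. The neonatal rat gut is known to make citrulline and arginine and to express gluconeogenic enzymes. Cps1 was at 13.94 to 14.10 in intestine and 5.09 to 7.86 in lung, Otc was at 11.77 to 12.41 against 5.21 to 6.55 (-6.32, SE 0.20), and Ass1 differed by -4.63. Pck1, the first committed enzyme of gluconeogenesis, was at 10.93 to 12.79 against 5.71 to 6.35, a difference of -6.02 (SE 0.16). Arg2 (0.29) and Pc (0.13) were not called. Fatty acid oxidation and ketogenesis genes were higher in intestine in 11 of 18 and higher in lung in none, led by Ehhadh (-2.63), Bdh1 (-1.88), Acaa2 (-1.5) and Acadl (-1.39). The mean of the 2 Acaa2 probe sets gave -0.94 and no call. Respiratory chain subunit genes were higher in intestine in 7 of 27 and higher in lung in none. Their median was -0.82 and all calls lay near the threshold, from Uqcrc1 at -1.01 to Sdhb at -1.22. The count of 7 became 4 when arrays were quantile normalized or centred on their median, 1 in the test against a 2-fold difference and 26 with no fold minimum.

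Antigen processing genes were higher in intestine in 8 of 18 and higher in lung in none. The calls included the catalytic subunits of the immunoproteasome, which cuts peptides for MHC class I: Psmb8 was at 11.54 to 12.12 in intestine and 7.68 to 8.33 in lung (-3.89, SE 0.11), Psmb9 differed by -2.70 and Psmb10 by -2.35. The peptide pump gene Tap1 (-1.43) and the class II chains RT1-Bb (-1.72) and RT1-Da (-1.56) were called, and RT1-Bb lost its call, at -0.60, when its 2 probe sets were averaged. B2m (-0.25), Cd74 (-0.37) and the regulators Nlrc5 (-0.39) and Ciita (-0.03) were not called. The dimmer of the 2 probe sets of B2m was called higher in intestine. The myeloid and macrophage list, described next, had 6 of 18 members higher in lung and none in intestine, with a median of 0.57. Among its uncalled members, chosen for naming after their values were seen, the panleukocyte gene Ptprc was at 0.18, Csf1r at 0.20, C1qa at -0.04 and Cd68 at -0.55. Of 11 lymphoid genes only Cd3g was called (-3.28), with Cd3d at -0.27 and Cd3e at -0.41.

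Of the 6 myeloid and macrophage genes higher in lung, Lyz2 (3.20) is also a type II cell gene. Every lung array lay above every intestine array for 9 of the 18, against 15.5% of all genes. The part of leukocytes in the antigen processing differences was not tested. S100a9 was at 10.74 to 11.77 in lung and 7.61 to 9.57 in intestine (2.97, SE 0.22), S100a8 differed by 2.69 and the macrophage mannose receptor gene Mrc1 by 1.74. Host defence genes split by organ. Chia, an acidic chitinase, was at 9.36 to 12.33 in lung (median 11.13) and 4.72 to 5.55 in intestine (median 5.04), a difference of 5.79 (SE 0.25). The phospholipase gene Pla2g2a (2.36), Wfdc2 (2.30) and Lcn2 (1.71) were higher in lung, and the protease inhibitor gene Slpi (-2.86) and the lectin gene Reg3b (-2.29) in intestine. Among 13 complement genes 5 were higher in lung, led by the regulators Cd59b (2.54) and Serping1 (2.50), and Cfi was higher in intestine (-1.98).

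Several gene families divided between the organs member by member. Of 16 claudins, Cldn18 (6.54), Cldn5 (2.76) and Cldn10 (1.72) were higher in lung and Cldn2 (-5.84), Cldn4 (-1.28) and Cldn7 (-1.09) in intestine. Cldn18 was at 12.55 to 13.08 in lung against 6.21 to 6.45 in intestine, and Cldn2, which forms a cation and water pore, was at 10.66 to 11.35 in intestine against 4.65 to 6.14 in lung. Among 10 aquaporins, Aqp4 (2.73) and Aqp3 (1.43) were higher in lung and Aqp8 (-4.97), Aqp11 (-4.76) and Aqp7 (-1.10) in intestine, and the Aqp3 groups overlapped. Of 7 mucins, the membrane mucin gene Muc1 (3.87) and the airway mucin gene Muc5b (1.52) were higher in lung and Muc3 (-6.72), Muc13 and Muc2 in intestine. Of 23 keratins, Krt79 (3.97), Krt4 (2.59), Krt7 (1.97) and Krt15 (1.38) were higher in lung and Krt20 (-4.89), Krt18 (-2.13) and Krt8 (-2.10) in intestine, while Krt19 was at 12.16 to 12.75 in lung and 11.99 to 12.54 in intestine. Among the phosphate carriers, Slc34a2 was higher in lung and Slc34a3 in intestine (-1.66).

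Further families were called mostly or wholly in 1 tissue. Lgals4, Lgals2 (-5.81) and Lgals9 (-3.96) were the called members of 8 galectins, all in intestine, and Lgals3 was at 0.86. Of 13 fatty acid and retinoid binding protein genes, 5 were higher in intestine and none in lung, with Fabp4 at -3.57 and Fabp3 at -1.19 beside the gut members. Of 14 S100 genes, 7 were higher in lung, and S100g, the vitamin D dependent calcium binding protein of enterocytes, was higher in intestine (-2.40). Anxa8 was at 12.32 to 13.20 in lung and 9.20 to 9.95 in intestine (3.15, SE 0.11), and it and 2 further annexins, Anxa1 (1.92) and Anxa6 (1.18), were the called members of 10, all in lung. Among 22 Hox genes, Hoxa5 was the lung call, and Hoxd8 (-2.31), Hoxd1 (-1.12), Hoxa9 (-1.11) and Hoxd3 (-1.09) were the intestine calls. Hoxd1 was dim in both tissues, at 4.62 to 5.52 in intestine, and lost its call under quantile normalization (-0.76).

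Xenobiotic metabolism genes were called in both directions, with 8 of 27 higher in lung and 9 in intestine. Ces1d, Sult1a1 (4.99), Cyp2f4 and the quinone reductase gene Nqo1 (3.72) led in lung. Gsta3 (-6.11), Sult1b1 (-5.83) and the efflux pump gene Abcg2 (-3.34) led in intestine. The sulfotransferases thus took opposite sides: Sult1a1 was at 11.48 to 12.53 in lung and 6.62 to 8.06 in intestine, and Sult1b1 was at 4.93 to 5.48 in lung and 10.18 to 11.70 in intestine. The glutathione transferase gene Gsta1 was higher in lung (3.18) and Gsta3 in intestine, and since both belong to one family of close sequence, the split between them is uncertain.

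Glucocorticoids are known to mature both organs before birth. Of 19 genes of their receptor, metabolism and response, 8 were higher in lung and 3 in intestine. Hsd11b1, which regenerates active hormone, was at 12.23 to 12.68 in lung (median 12.51) and 8.18 to 8.56 in intestine (median 8.33), a difference of 4.12 (SE 0.07). Hsd11b2, which inactivates it, was at -0.40 and not called. The response genes Klf15 (3.42), Klf9 (2.30), Fkbp5 (1.29) and Tsc22d3 (1.13) were higher in lung, and Mt2A (-5.06), Mt1 (-2.87) and Pck1 in intestine. The receptor gene Nr3c1 was at 11.02 to 11.45 in lung and 10.03 to 10.39 in intestine, a difference of 0.99 that fell just short of a call. The mineralocorticoid receptor gene Nr3c2 was at -0.96.

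Signalling genes were mixed. Of 20 Wnt ligands and antagonists, 4 were higher in lung, namely the antagonist genes Wif1 (3.99) and Sfrp2 (2.59) and the ligand genes Wnt2 (3.02) and Wnt4 (2.9), and the antagonist genes Sfrp5 (-1.84) and Sfrp1 (-1.40) were higher in intestine. Among 11 hedgehog genes, the antagonist gene Hhip (2.52) and the co-receptor gene Boc (1.76) were higher in lung and the ligand gene Ihh (-1.23) in intestine, while Shh (0.47) and the target gene Gli1 (-0.24) were not called. Of 24 BMP, TGF-beta and FGF genes, 10 were higher in lung and 5 in intestine. In the test against a 2-fold difference these counts were 5 and 2, and with no fold minimum 10 were higher in intestine. Grem1, a BMP antagonist of the gut wall, was at 8.92 to 10.91 in intestine (median 10.03) and 3.62 to 4.50 in lung (median 3.98), a difference of -5.97 (SE 0.20). Bmp5 (2.56), Fgfr3 (2.28), Fgf18 (2.15) and Tgfb2 (1.85) were higher in lung, and Bmp7 (-2.26) and Fgf9 (-1.21) in intestine. The receptor gene Fgfr2 was called at 1.47 by its brightest probe set, and the mean of its 5 probe sets was 0.33.

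Proliferation genes lay below the fold minimum. None of 22 mitosis genes was called, against 7.91% and 8.21% of all genes, although their median was -0.52 and Mki67, the proliferation antigen, was at 10.61 to 11.30 in lung and 11.73 to 12.07 in intestine (-0.90, SE 0.07). By adjusted p alone, with no fold minimum, 20 of the 22 were higher in intestine. Of 28 DNA replication genes, Orc1 was called higher in intestine (-1.24), with a list median of -0.49, and with no fold minimum 21 were higher in intestine and 1 in lung. Without lung arrays 1, 6 and 8 and intestine array 9, 2 mitosis genes and 4 replication genes were called, all higher in intestine, and Mki67 was among them (-1.01). Those lung arrays had the 3 highest replication levels of their group (9.79, 9.63 and 9.83, against a group median of 9.39).

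Some counts of list members moved with the brightness filter or the threshold. With bright probe sets only, which leaves dim genes untested, the intestine calls were 9 in place of 15 for brush border genes, 6 in place of 14 for enterocyte transporters, 5 in place of 10 for goblet cell genes, 6 in place of 12 for intestinal transcription factors and 7 in place of 11 for urea cycle and gluconeogenesis enzymes. The lung calls were 3 in place of 7 for ciliated cell genes, 4 in place of 8 for airway secretory genes and 4 in place of 8 for antimicrobial genes, and xenobiotic genes gave 3 and 5 in place of 8 and 9. In the test against a 2-fold difference, 6 of the 11 fatty acid oxidation calls, 4 of the 8 erythroid lung calls, 3 of the 5 complement lung calls and 3 of the 5 lung liquid calls passed. With no fold minimum, 12 smooth muscle genes, 8 lymphoid genes and 7 bile acid genes were higher in intestine, in place of 7, 1 and 3.

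Epithelial genes that both organs share were checked, chosen after their values were seen. Epcam was at 13.38 to 13.95 in intestine and 11.71 to 12.26 in lung (-1.65, SE 0.18), and Cdh1, the epithelial cadherin, at 12.79 to 13.15 and 11.27 to 12.05 (-1.24, SE 0.14). Together with Krt8 and Krt18 these 4 were higher in intestine, while Krt19 did not pass. The mean of the 2 Cdh1 probe sets gave -0.92 and no call. How much of each epithelial or mesenchymal difference goes with the share of epithelium in the tissue was not tested.

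Markers of neighbouring tissues were read on each array. Exocrine pancreas genes gave no lung call and 1 intestine call among 15, Cela1 (-4.48), and stomach and oesophagus genes 2 lung calls among 15, Krt4 and Krt15, and 1 intestine call, the pepsinogen gene Pga5 (-2.29). No cartilage, skeletal muscle or thyroid gene of 13, 13 and 8 was called. Over all genes 7.91% were higher in lung and 8.21% in intestine, so counts this small say little about these lists. Of 17 cardiac muscle genes, the atrial myosin light chain genes Myl7 (4.51) and Myl4 (2.89) were higher in lung, and Pln (-2.34) and Tnnt2 (-2.02) in intestine. Myl7 was at 8.18 to 10.35 in lung (median 9.8) and 4.80 to 5.52 in intestine (median 5.15), while the mean level of the cardiac list was 7.31 to 8.0 in lung and 7.31 to 7.61 in intestine. The part of heart or vein muscle in the lung samples was not tested.

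Lung arrays 1, 6 and 8 stood apart from the other 7. Correlated with each other array of its group, an array had a median coefficient of 0.967, 0.960 and 0.967 for lung arrays 1, 6 and 8 and between 0.979 and 0.984 for the other lung arrays, and between 0.976 and 0.986 for intestine. The mean level of 14 liver genes was 8.58 in lung array 1 and 8.62 in lung array 8, against a lung median of 6.52 and an intestine range of 8.11 to 9.21. Lung array 6 had the highest mesothelial level of its group (9.91, group median 9.03) and the lowest ciliated cell level (8.80, group median 9.22). Type I cell levels were lowest in these arrays, at 11.12, 11.14 and 11.04 against a group median of 11.49. Without lung arrays 1, 6 and 8 and intestine array 9, whose liver level was the highest of its group (9.21), 1174 genes were called higher in lung and 1206 in intestine, and 1096 and 1129 of these were also called with all arrays.

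Without these 4 arrays the liver list had 6 intestine calls in place of 5, while the sizes of several differences moved. With all arrays 5 of its 14 genes were higher in intestine, and Afp, the fetal serum protein that gut endoderm also makes, was at 12.56 to 13.26 in intestine (median 12.85) and 4.0 to 11.47 in lung (median 5.31). Its difference was -6.71 (SE 0.67) with all arrays and -7.97 without the 4. Serpina1 (-3.53), Fga (-4.03) and F2 (-3.10) were called with all arrays and stood at -4.04, -4.54 and -3.51 without them. Alb, the main serum protein, was at 5.44 to 12.29 in lung and 5.71 to 11.77 in intestine and was not called (-1.62, adjusted p = 0.0919 by limma), but was called without the 4 arrays (-2.58, adjusted p = 0.00381 by limma). Alb thus varied between arrays of each tissue by more than the tissues differed.

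The intestine arrays varied among themselves in epithelial, wall, metabolic and proliferation genes. Brush border levels ran from 10.80 to 11.37 and the 5 lowest were those of arrays 1 to 5. The same arrays were the 5 lowest for enterocyte transporters, urea cycle and gluconeogenesis enzymes, and fatty acid oxidation genes (10.47 to 10.61, against 10.69 to 10.85). They were the 5 highest for mitosis and replication genes (replication 9.96 to 10.09, against 9.76 to 9.85). Upper quartiles of intensity split alike, at 639.5 to 646.1 against 625.1 to 629.8. What separates the arrays was not tested. Smooth muscle levels ran from 10.62 to 11.44, with array 3 highest, and array 3 also had the highest mesothelial level (9.49) and the lowest lipid absorption level (11.63). The highest lung level was 7.47 for brush border, 9.98 for smooth muscle and 7.60 for lipid absorption, so for these 3 lists the tissues did not overlap. For mesothelial genes they did, with lung levels of 8.64 to 9.91 and group medians of 9.03 in lung and 8.86 in intestine.

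**Figure D4:**
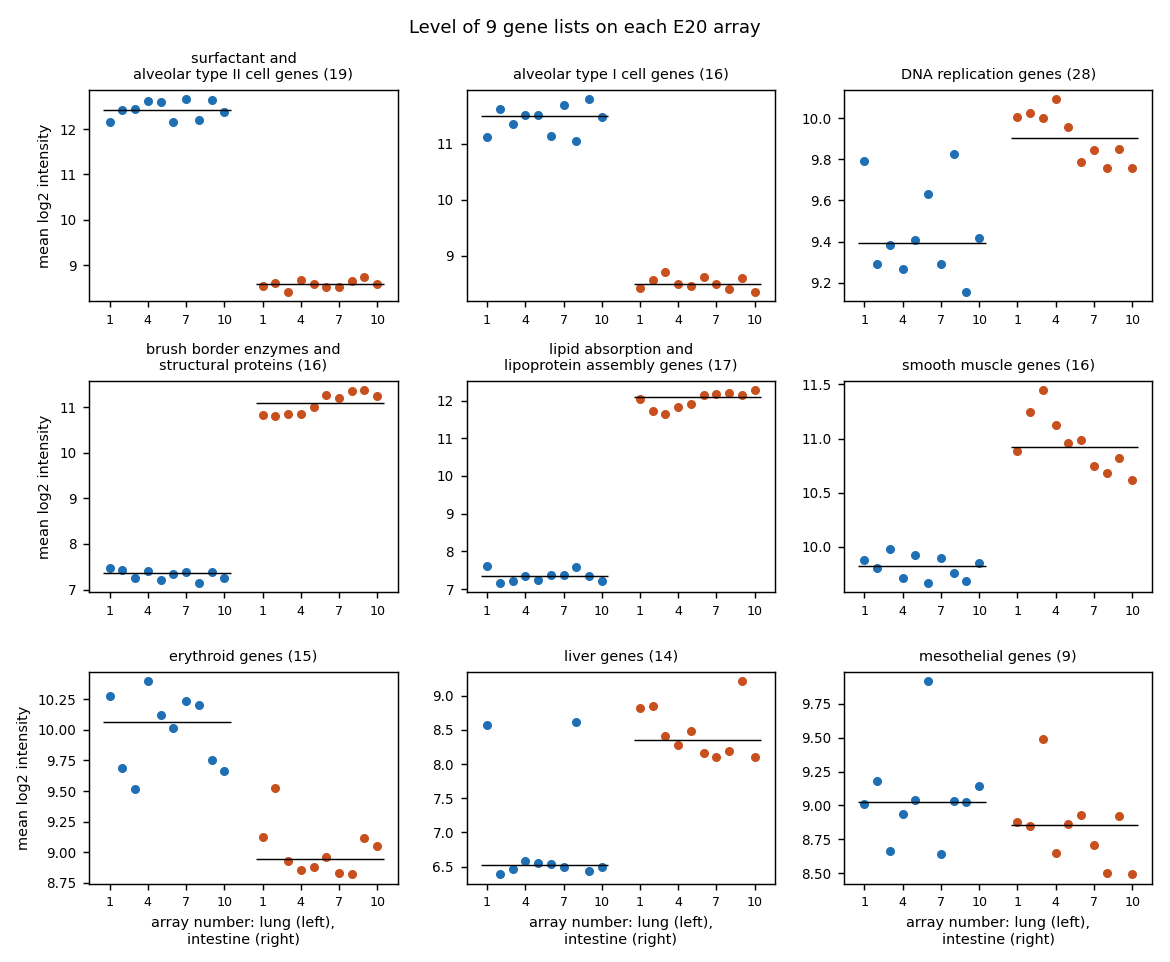
Mean log2 intensity of the measured members of 9 gene lists (y axis, number of genes in brackets) on each of the 10 lung arrays (blue) and 10 intestine arrays (orange) at E20, with a line at each group median. Lung arrays 1 and 8 are high for liver genes (8.58 and 8.62) and lung array 6 for mesothelial genes (9.91), and the 3 arrays are low for type I cell genes and high for replication genes.

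Red cell genes were read in both tissues, and no label used here names a step that removed blood. Hbe1, the embryonic globin, was at 10.14 to 11.49 in lung and 7.87 to 9.41 in intestine (2.41, SE 0.14), and Alas2, the first enzyme of haem synthesis in red cells, differed by 2.28 (SE 0.17). Hbb was close to the top of the scale in both tissues, at 14.81 to 15.08 and 14.07 to 14.82 (0.53, not called). Tfrc, the transferrin receptor that dividing and iron-loading cells carry, was higher in intestine (-1.39).

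The same tissue difference was smaller at E16. There 303 genes were called higher in lung (2.13%) and 427 higher in intestine (3%), and this split turned to 388 and 345 when arrays were centred on their medians. By size, 10 genes were at least 16-fold higher in lung and 13 in intestine. The E16 lung arrays were uneven for cardiac genes, with an SD of 2.56 for Myl7 and 2.47 for Myh6. Lung calls at E16 included 4 of 17 cardiac, 3 of 13 skeletal muscle and 3 of 13 cartilage genes. No setting left out E16 arrays, and the part of neighbouring tissue in the E16 differences and the changes was not tested. Of the 1125 lung calls at E20, 197 (17.5%) were already called at E16, and of the 1167 intestine calls, 192 (16.5%). Conversely, 65.0% of the E16 lung calls and 45.0% of the E16 intestine calls were called the same way at E20. The change of the difference from E16 to E20 was tested as an interaction, and 1297 genes (9.12%) moved towards lung and 1205 (8.48%) towards intestine. Of the E20 lung calls 806 (71.6%) and of the intestine calls 869 (74.5%) had a called change in their own direction, a share that the choice of genes by their E20 values favours.

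Genes of patterning and of the organ wall were among those already apart at E16. Tbx4 differed by 6.19 at E16 and 6.53 at E20, Tbx5 by 7.15 and 6.36, Nkx2-1 by 3.03 and 3.41, Irx2 by 3.86 and 4.40 and Meox2 by 4.11 and 4.33, and none of these 5 had a called change. Of the 19 lung transcription factor genes, however, 6 had a called change towards lung, among them Irx1 (3.93 and 4.97). On the intestinal side Grem1 differed by -5.41 and -5.97, Cnn1 by -3.29 and -3.27 and Actg2 by -2.71 and -3.31, again with no called change. Smooth muscle genes gave no called change among 16. Of 21 neuron and glia genes, 3 had a called change towards lung and 3 towards intestine, against 9.12% and 8.48% of all genes. Many products of differentiated cells lay close together at E16. Sftpb differed by 0.19 at E16 and 7.23 at E20, a change of 7.04, Sftpa1 by 0.38 and 7.39, Ager by -0.07 and 5.10, and Sftpc, already at 11.18 in E16 lung, by 4.87 and 8.42. Rbp2 differed by -0.29 and -8.36, a change of -8.07, Prap1 by -0.29 and -7.84, Mttp by -0.89 and -8.80 and Apoa4 by -0.34 and -7.59, while Cps1 was already apart at E16 (-3.78). Hnf4a and Cdx2 differed by -2.12 and -1.2 at E16 and then changed by -4.05 and -4.35. They were among 11 of 16 intestinal transcription factor genes with a called change towards intestine. Of 19 surfactant genes, 15 moved towards lung and all 10 goblet cell genes towards intestine.

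**Figure D5:**
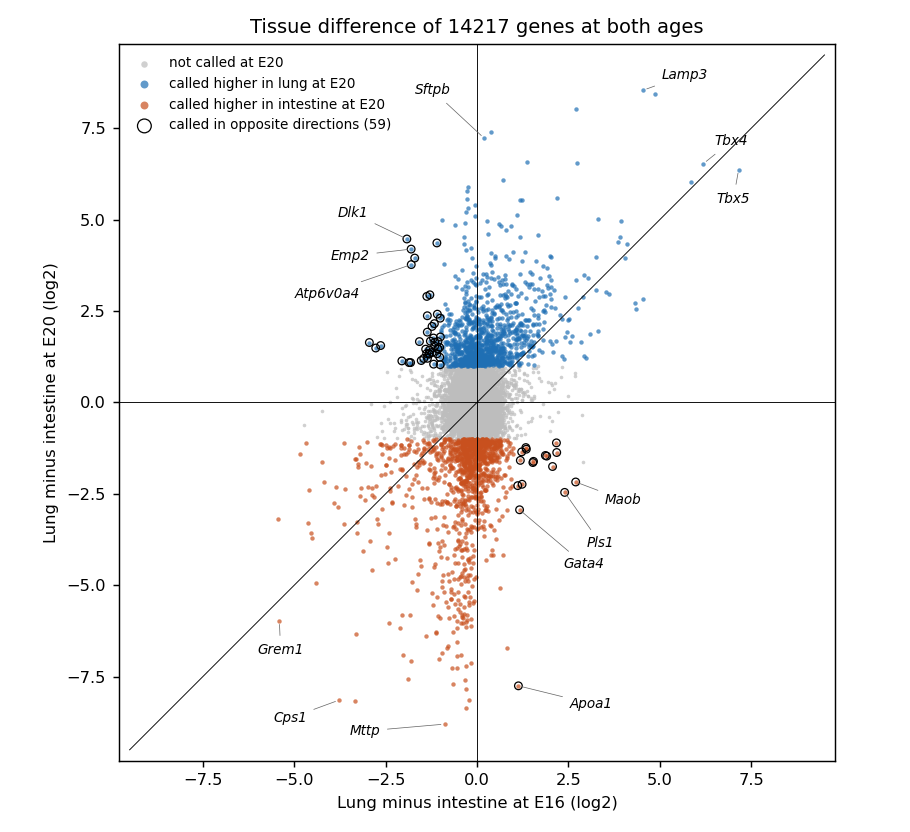
Lung minus intestine (log2) of 14217 genes at E16 (x axis) and at E20 (y axis), coloured by the E20 call, with circles on the 59 genes called in opposite directions at the 2 ages. Tbx4, Tbx5 and Grem1 lie near the line of equal difference, Sftpb, Mttp and most large E20 differences lie near 0 at E16.

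At the 2 ages 59 genes were called in opposite directions, 42 of them towards lung at E20 and 17 towards intestine. Emp2 went from -1.8 to 4.19, Dlk1, an imprinted growth regulator, from -1.92 to 4.47 and Atp6v0a4, a proton pump subunit, from -1.8 to 3.77. Pls1, the plastin of microvilli, went from 2.40 to -2.46, Maob, which breaks down amines, from 2.70 to -2.18 and Gata4 from 1.16 to -2.94. Epcam and Cdh1 also crossed, from 1.53 to -1.65 and from 1.33 to -1.24. For Dlk1 the mean in lung was 7.85 at E16 and 12.24 at E20, and in intestine 9.77 and 7.77. Pls1 was at 9.61 and 9.75 in lung and at 7.21 and 12.21 in intestine, so its crossing came from the intestine, whereas that of Dlk1 came from both organs. Hprt1, often used as a reference gene, was at 0.39 at E16 and 0.04 at E20.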

How the data were processed

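RNA of whole fetal rat lung and intestine had been hybridised to 1-colour oligonucleotide arrays, 1 array per sample. The authors deposited linear intensity values per probe set, and the submitters' processing notes name RMA without a version; the genome build, and whether both tissues were normalised together, are not given in the sources used here. The log2 values used here were taken from these deposited intensities, with no further normalization. The 4 groups of 10 arrays (lung and intestine at E20 and E16) were fitted together with limma 3.58.1 in R 4.3.3 (lmFit, eBayes), with the E20 difference, the E16 difference and their interaction as contrasts and p-values adjusted by Benjamini-Hochberg over 20826 probe sets. Tables were handled with pandas 2.3.3 in Python 3.11.15. Probe sets were named through the platform annotation: 20826 of 31099 had 1 symbol, 436 had several, 9780 had none and 57 were controls, and 20758 matched GRCr8 by gene identifier. Each gene was read from whichever of its probe sets was brightest on average over the 40 arrays. No detection calls were used, and the number of arrays limits the precision. The array medians at E20 were 225 to 249 for lung and 235 to 248 for intestine. The fit was tested on simulated data.

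The members and gene lists were chosen with earlier results of these data known. Genes named are the 10 largest differences each way among bright genes with established symbols and no overlap, up to 4 called members of each list and 2 each way of each family, a set list of genes whatever their value, and the genes with the largest change or with opposite calls between the ages; others complete a list's count or were chosen after their values were seen. Alternatives were the E20 arrays alone, a replicate block, quantile normalization, median centring, bright probe sets only, the mean of a gene's probe sets, 1 probe set per gene, a test against a 2-fold difference, no fold minimum, array weights, and leaving out lung arrays 1, 6 and 8 and intestine array 9.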

Additional observations from a re-analysis of the deposited data

Results flagged for a closer look

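Within groups of 10 arrays, 458 sets of values (each group's values of 186 genes and 43 gene lists) were searched for an array set apart from the other 9. Such an array was found in 27, a share near the about 5% of groups that would have it by chance. The arrays below are therefore only described. The sets also overlap, as Ccno and Rsph1 belong to the ciliated cell list. Values are log2 intensities. In lung, array 6 was low for Ccno (8.68), Cyp2f4 (7.97) and Rsph1 (7.56) and for the ciliated cell list (8.80), and high for the mesothelial list (9.91). Lung array 8 was set apart for Elovl6 (8.70) and Slc2a2 (6.15), lung array 1 for Fabp2 (6.19), lung array 3 for S100a8 (10.30) and Slc26a3 (4.42), and lung array 7 for Krt79 (8.04) and the skeletal muscle list (7.68). Lung arrays 2, 4, 5 and 9 were set apart for Dynlrb2 (10.58), Bdh1 (8.35), Krt20 (6.80) and Tpm2 (9.59). In intestine, array 3 was set apart for Aqp8 (11.23), Pga5 (7.03), Serpina1 (9.8), Sftpb (5.65) and the mesothelial list (9.49). Intestine array 1 was set apart for Gsta3 (11.80) and Wnt4 (6.05), array 9 for Muc5b (9.06) and the club cell list (7.47), array 2 for the erythroid list (9.52) and array 10 for Scgb1a1 (6.82).

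For 13 of the genes described, the tissue difference was called in opposite directions at E16 and E20, and the interaction in limma was called for each. Among them Epcam, with a change of -3.17, was chosen after its values were seen. The difference moved towards lung by 6.39 for Dlk1, 5.99 for Emp2, 5.57 for Atp6v0a4, 4.27 for Wnt4, 3.28 for Anxa1 and 2.73 for Cdh22. The change was -8.88 for Apoa1, -4.87 for Maob, -4.86 for Pls1, -4.10 for Gata4, -2.63 for Cldn4 and -2.57 for Cdh1, all towards intestine, as was that of Epcam. At E16 both tissue means of Apoa1, Atp6v0a4 and Gata4 lay below the median of all values, 7.89. For Apoa1 they were 7.66 in lung and 6.53 in intestine, where the SD was 1.06. The E16 call of these genes thus compares dim groups. At E20 the calls of Cdh22, Cdh1 and Cldn4 were lost in the test against a 2-fold difference (adjusted p = 0.131, 0.389 and 0.432 by limma). The mean of the 2 probe sets gave no call for Cdh22 (0.86) or Cdh1 (-0.92).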

How the results depend on the processing

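Over 11 settings at E20, 0 genes were called with the other sign, and none of the 250 named genes reversed. A reversal was impossible in several of these settings, which leave each gene's E20 difference as in the main fit. These were the E20 arrays alone, the replicate block, bright probe sets, 1 probe set per gene, the 2-fold test and no fold minimum. The calls of 60 named genes moved, 32 times to below the threshold and 46 times to above it. Counts of calls moved by over 1.5 times under 3 settings. With no fold minimum they were 4329 for lung and 6025 for intestine at E20, 3358 and 5688 at E16, and 4977 and 4365 for the change towards lung and towards intestine. With bright probe sets only, which tests fewer genes, the intestine calls were 750 at E20 and 250 at E16. Tested against a 2-fold difference, the E16 calls were 159 for lung and 243 for intestine and the changes 734 and 766. The replicate numbers did not pair the tissues at E20: same-numbered lung and intestine arrays had correlations of their deviations from -0.140 to 0.395, over 0.1 in 4 of 10, and 2 lung and 1 intestine arrays correlated best with their own number. At E16 the correlations ran from -0.047 to 0.701 with a median of 0.273, against -0.038 for pairs with different numbers, and 7 of 10 were over 0.1. There 5 lung and 6 intestine arrays correlated best with their own number, and 8 of 10 pairs shared a sex transcript, against 4 of 10 at E20. Of the other E16 pairs, number 1 had Xist high in lung and Eif2s3y in intestine. In number 6 the intestine array did not have 1 of these transcripts alone high. A pairing at E16 was thus not settled. With the replicate block the E20 calls were 1125 and 1167, those at E16 303 and 427, and the changes 1299 and 1206. Dim probe sets, which lie near background, limit the size of many differences.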
